A study of Mus musculus with 26 samples.

Results

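The CXC chemokines are the ligands with the symbols *Cxcl1*, *Cxcl2*, *Cxcl3*, *Cxcl5*, *Cxcl9*, *Cxcl10*, *Cxcl11*, *Cxcl12*, *Cxcl14* and *Cxcl16*, chosen by their symbols. They are 10 of 56738 gene symbols listed, and 8 of them were among the 16893 genes with a mean normalized count over 10, while *Cxcl9* and *Cxcl11* were below it. They were measured by bulk RNA sequencing in cultured primary keratinocytes, the main epithelial cell of the epidermis, of 5 wild-type (WT) mice and 8 *Pla2g4d*-deficient (KO) mice, all C57BL/6NJ pups aged 2 days. The KO allele was made with CRISPR-Cas9 and lacks exon 3 of *Pla2g4d*, a phospholipase of the cytosolic phospholipase A2 group IV family, in every cell of the animal. Cells of each mouse were grown for 4 days at 0.06 mM CaCl2 and then either kept without cytokines (basal) or exposed to IL17A and TNFα at 20 ng/ml each for 24 h. This gave 4 groups and 26 libraries, by their labels a basal and a cytokine-treated library from every mouse. The study's methods describe homozygous breeding of the KO line, and the labels give no litter, so genotype and litter cannot be told apart.

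CXC chemokines are small proteins that attract leukocytes, and they are named for a single residue between their first pair of cysteines. Cxcl1, Cxcl2, Cxcl3 and Cxcl5 bind the receptor Cxcr2 and draw neutrophils, Cxcl9, Cxcl10 and Cxcl11 are induced by interferons and draw activated T cells through Cxcr3, and Cxcl12 and Cxcl14 are made by many resting tissues. Cxcl12 acts through Cxcr4 and is also bound by the scavenger Ackr3, and Cxcl14 is made abundantly by resting epithelium. Cxcl16 is made as a transmembrane protein that is shed by metalloproteases and binds Cxcr6. In keratinocytes IL17A and TNFα act together on the neutrophil-attracting group, TNFα through the transcription factor NF-kB and IL17A largely by slowing the decay of chemokine mRNA. Mice of the C57BL/6 strains carry a *Cxcl11* allele that makes no functional protein.

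*Cxcl1*, *Cxcl2*, *Cxcl3* and *Cxcl5* lie within a cluster on chromosome 5 of GRCm39, with *Cxcl1* from 91039094 to 91040974, *Cxcl2* from 91051730 to 91053797, *Cxcl3* from 90933962 to 90937459 and *Cxcl5* from 90907186 to 90909483, all on the plus strand. *Cxcl9* (92469206 to 92475945), *Cxcl10* (92494497 to 92496748) and *Cxcl11* (92507403 to 92513344) lie on the minus strand of the same chromosome. *Cxcl12* lies on chromosome 6 (117144945 to 117158328, plus strand), *Cxcl14* on chromosome 13 (56436352 to 56444603, minus strand) and *Cxcl16* on chromosome 11 (70344517 to 70352620, minus strand). RefSeq promoters (250 bases before to 50 bases after the start, from the GRCm38.p6 annotation and found once each in GRCm39) were matched for 7 of the 10 genes, the others being *Cxcl5*, *Cxcl11* and *Cxcl16*. The promoters of 5 members are shown, those of the neutrophil-attracting genes matched and those of *Cxcl10* and *Cxcl14*, which moved in opposite directions. Capitals mark a form of the NF-kB motif (GGGA and TTCC with any 2 bases between them) and a form of the interferon-stimulated response element, ISRE (GAAA and GAAA with any 2 bases between them), searched on both strands.
Cxcl1, chr5:91038854-91039153, plus strand: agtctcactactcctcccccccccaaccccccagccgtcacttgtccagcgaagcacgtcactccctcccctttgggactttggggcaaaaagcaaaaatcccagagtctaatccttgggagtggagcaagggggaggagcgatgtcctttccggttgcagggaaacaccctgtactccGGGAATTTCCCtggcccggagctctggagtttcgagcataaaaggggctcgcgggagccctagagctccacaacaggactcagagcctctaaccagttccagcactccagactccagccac
Cxcl2, chr5:91051508-91051807, plus strand: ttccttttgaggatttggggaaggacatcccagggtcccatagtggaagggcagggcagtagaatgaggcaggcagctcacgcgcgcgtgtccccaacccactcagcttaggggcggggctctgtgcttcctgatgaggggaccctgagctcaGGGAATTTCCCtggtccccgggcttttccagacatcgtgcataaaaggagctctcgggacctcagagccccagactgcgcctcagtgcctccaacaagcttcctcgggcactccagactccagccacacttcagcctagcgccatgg
Cxcl3, chr5:90933710-90934009, plus strand: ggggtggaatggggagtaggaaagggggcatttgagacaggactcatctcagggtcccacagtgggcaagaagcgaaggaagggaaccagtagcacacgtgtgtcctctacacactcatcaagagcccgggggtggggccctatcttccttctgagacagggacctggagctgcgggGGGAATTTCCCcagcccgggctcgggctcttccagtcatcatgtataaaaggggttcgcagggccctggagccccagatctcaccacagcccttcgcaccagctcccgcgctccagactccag
Cxcl10, chr5:92496699-92496998, minus strand: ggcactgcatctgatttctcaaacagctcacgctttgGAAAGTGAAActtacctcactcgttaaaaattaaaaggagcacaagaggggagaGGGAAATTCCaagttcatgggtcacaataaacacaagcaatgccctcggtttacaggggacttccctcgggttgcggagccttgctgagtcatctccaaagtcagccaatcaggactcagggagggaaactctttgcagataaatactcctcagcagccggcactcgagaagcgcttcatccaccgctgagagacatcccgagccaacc
Cxcl14, chr13:56444315-56444614, minus strand: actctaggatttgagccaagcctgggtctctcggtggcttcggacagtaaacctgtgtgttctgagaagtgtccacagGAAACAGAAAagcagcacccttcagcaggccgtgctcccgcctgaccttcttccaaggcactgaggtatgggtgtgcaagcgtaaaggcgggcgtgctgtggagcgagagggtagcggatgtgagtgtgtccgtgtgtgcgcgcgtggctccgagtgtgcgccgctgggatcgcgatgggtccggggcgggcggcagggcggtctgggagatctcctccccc

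The NF-kB letters stood in 4 of the 7 promoters, and 1.47% of the 32851 promoters in the table hold them. In *Cxcl1*, *Cxcl2* and *Cxcl3* the same run GGGAATTTCCC matched on both strands, the match on the coding strand beginning at -71, -97 and -73 from the start. *Cxcl10* held the NF-kB letters from -159 to -150 and the ISRE letters from -213 to -204, which do not overlap. The ISRE letters, present in 3.44% of all promoters, also stood in *Cxcl14* (-172 to -163). Neither run was found in the windows of *Cxcl9* and *Cxcl12*. Positions count from the RefSeq start. The windows of *Cxcl14* and *Cxcl12* lie mostly and wholly within the gene spans given above. They therefore cover few or none of the bases before the outermost start of these genes. A match describes these letters and was not tested for function.

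Total counts per library lay between 42072745 and 78102858, and precision was set by the spread between mice, except for members with only a few counts. Levels are given as CPM, the count scaled to library size with TMM factors. The 10 keratinocyte markers summed to between 34227 and 48980 CPM, and this sum was lower with cytokines. *Krt5* and *Krt14* had the highest levels of them. Their means were 21178 and 16220 CPM in WT basal and 17055 and 11769 CPM in WT cytokine libraries. In KO cells they were 21662 and 15426 CPM, and 17473 and 11291 CPM with cytokines. *Krt1* and *Krt10*, keratins of differentiating cells, and *Krt15* were called lower with cytokines in both genotypes. The 10 fibroblast markers summed to at most 12.1 CPM and the 10 immune cell markers to at most 20.9 CPM, with the Langerhans cell marker *Cd207* at 0 in every library. The gene counts of *Pla2g4d* include reads outside exon 3 and do not check its loss. A WT mouse and a KO mouse stood apart on them, the KO mouse clearly only with cytokines. *Pla2g4d* in WT replicate 1 was 1.22 CPM under basal conditions and 28.6 CPM with cytokines, the lowest of the WT libraries (the other WT mice 3.14 to 4.63 and 47.1 to 65.2 CPM), and in KO replicate 8 it was 2.98 and 59.2 CPM, the highest of the KO libraries (the other KO mice up to 2.94 and 42.2 CPM). The treated library labelled KO replicate 8 thus lay within the range of the other WT mice, and the basal library labelled WT replicate 1 within that of the KO mice. Both libraries of these mice also had *Cxcl5* levels within the range of the other genotype. Basal *Cxcl1* and *Cxcl16* of WT replicate 1, at 8.71 and 188 CPM, lay below every KO library. The study reports that no reads of the treated KO cells mapped to the deleted exon, and that RT-PCR also showed its loss. Its text makes no separate statement on the WT mouse that stood apart. Whether these mice carry the genotype of their labels was not tested here, since gene counts cannot show it. The answer bears on every genotype value here. All libraries stayed in the groups of their labels, and genotype results that rest on these mice are given with and without them, a choice made after these values were seen.

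Compared per length of their exons, *Cxcl16* had the highest level of the 10 members in every group and *Cxcl9* and *Cxcl11* the lowest. In WT basal cells *Cxcl16* reached 35.3 ± 1.77 CPM per kb (SD, n = 5), *Cxcl14* 8.74 ± 1.55, *Cxcl1* 3.26 ± 0.987 and *Cxcl12* 0.508 ± 0.113 CPM per kb, and each lay above the next in 5 of 5 libraries. *Cxcl10* (0.133 ± 0.0900 CPM per kb) and *Cxcl2* (0.120 ± 0.0938) came next and did not differ beyond their spread, and *Cxcl5* and *Cxcl3* were at 0 in 4 of 5 WT basal libraries. With cytokines *Cxcl1* passed *Cxcl14*. In WT cells *Cxcl16* was then at 89.4 ± 7.66, *Cxcl1* at 40.7 ± 4.75 and *Cxcl14* at 4.24 ± 0.574 CPM per kb, and in KO cells (n = 8) the levels were 88.3 ± 5.03, 48.3 ± 7.99 and 5.15 ± 0.584 CPM per kb, each above the next in every library. Below these *Cxcl2*, *Cxcl12* and *Cxcl10* overlapped in WT cells (2.12 ± 0.752, 1.47 ± 0.398 and 1.12 ± 0.627 CPM per kb). In KO cells *Cxcl2* (2.42 ± 0.651 CPM per kb) and *Cxcl5* (2.31 ± 1.09) overlapped, with *Cxcl2* the higher in 4 of 8 libraries.

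**Figure D1:**
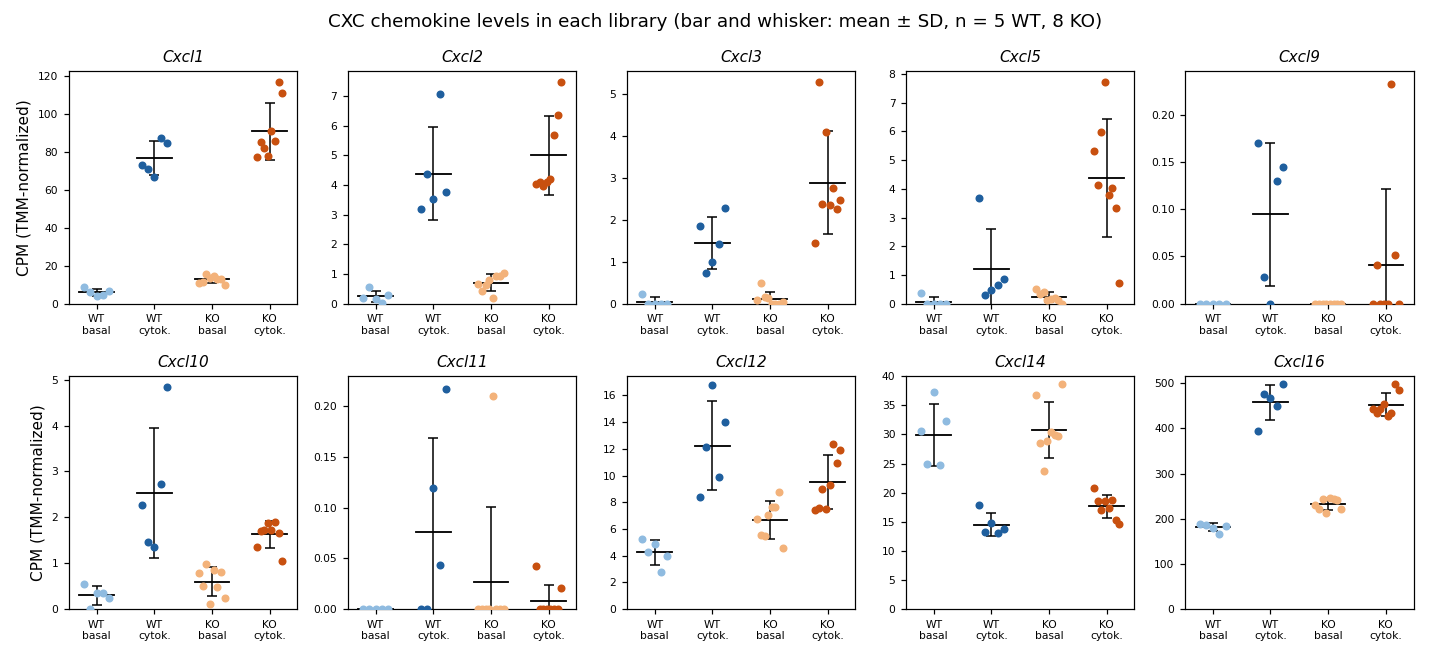
Level of each CXC chemokine in every library, in CPM (vertical axis, a scale for each gene), with a point for each library, a bar at the group mean and whiskers of 1 SD (n = 5 WT, 8 KO), drawn from 0 upward. *Cxcl1*, *Cxcl2*, *Cxcl3*, *Cxcl5*, *Cxcl10*, *Cxcl12* and *Cxcl16* are higher and *Cxcl14* is lower with cytokines, and the WT library with 3.67 CPM of *Cxcl5* and the KO library with 0.717 CPM stand apart from their groups.

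The first question was which CXC chemokines respond to IL17A and TNFα in WT and in KO keratinocytes. A change was called where the adjusted p was below 0.1 and the fold exceeded 1.5, the thresholds of the study's methods. The study tested with DESeq2, while edgeR's quasi-likelihood test was used here, with Benjamini-Hochberg adjustment over 16893 genes. In WT cells 7 of the 8 tested members rose and *Cxcl14* fell, where 8.65% of all genes tested rose and 5.26% fell. The median log2 fold change of the 8 members was 3.35, and that of all genes 0.01. In KO cells 6 rose and *Cxcl14* fell (background 6.33% and 4.55%), with a median of 2.14, and *Cxcl12* passed the adjusted p but not the fold change. All 7 rising members were higher and *Cxcl14* was lower with cytokines in 5 of 5 WT mice and 8 of 8 KO mice when both libraries of a mouse were compared. The libraries of the treatments did not overlap for 7 of 8 members in WT cells (20.5% of all genes) and 7 of 8 in KO cells (11.8%), the exceptions being *Cxcl5* in WT and *Cxcl12* in KO cells. The 2 endothelial markers tested, *Pecam1* and *Kdr*, also rose with cytokines in both genotypes. Their list of 6 summed to 1.37 to 3.03 CPM in WT basal and 3.50 to 5.36 CPM in WT cytokine libraries, and to 1.79 to 4.79 and 4.85 to 5.96 CPM in KO cells, with *Emcn* and *Cldn5* at 0 in every library. The 6 melanocyte markers summed to 429 to 610 CPM in WT basal and 333 to 475 CPM in WT cytokine libraries, and to 466.2 to 628 and 306 to 404 CPM in KO cells. The part of either list in the chemokine changes was not tested, and in bulk RNA fewer cells of a type and less RNA per cell cannot be told apart.

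The neutrophil-attracting group showed the largest rises, with 4 of 4 members up in both genotypes and median log2 fold changes of 4.04 in WT and 3.49 in KO cells. *Cxcl1* was the most abundant of them. In WT replicates 1 to 5 it stood at 8.71, 6.36, 3.96, 4.78 and 6.85 CPM under basal conditions and at 72.9, 71.0, 66.9, 87.4 and 84.5 CPM with cytokines. In KO cells it ranged from 9.83 to 15.9 CPM (median 13.1, n = 8) and from 77.3 to 117 CPM (median 85.4) with cytokines. All treated libraries lay far above all basal ones in both genotypes. These levels gave log2 fold changes of 3.65 (standard error, SE, 0.17, adjusted p = 3.43e-16) and 2.82 (SE 0.13, adjusted p = 1.07e-16) in WT and KO cells. *Cxcl2* rested on fewer counts, 2 to 28 in WT basal and 178 to 326 in WT cytokine libraries. It stood at 0.208, 0.553, 0.161, 0.0315 and 0.284 CPM in WT basal and at 3.21, 4.37, 3.54, 7.07 and 3.76 CPM in WT cytokine libraries. In KO cells its range moved from 0.210 to 1.05 CPM (median 0.727) up to 3.99 to 7.48 CPM (median 4.17). Its log2 fold changes were 4.18 (SE 0.43, adjusted p = 5.25e-09) and 2.82 (SE 0.30, adjusted p = 1.21e-08).

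*Cxcl3* and *Cxcl5* were near or at 0 before treatment. *Cxcl3* had a count only in replicate 1 of the WT basal libraries (14 counts, 0.243 CPM) and reached 1.85, 0.733, 0.995, 1.43 and 2.28 CPM with cytokines. In KO cells 5 of 8 basal libraries had a count, up to 0.498 CPM, and with cytokines the range was 1.44 to 5.29 CPM (median 2.44). The fitted log2 fold changes of *Cxcl3* were 4.80 in WT (SE 0.88, adjusted p = 8.21e-05) and 4.601 in KO cells (SE 0.64, adjusted p = 1.21e-06). The KO value was 5.23 without KO replicate 2, which held the highest basal level. *Cxcl5*, a chemokine made chiefly by epithelial cells, likewise had a WT basal count only in replicate 1 (22 counts, 0.382 CPM). With cytokines that mouse reached 3.67 CPM, and the other WT mice reached 0.310, 0.478, 0.650 and 0.867 CPM. KO cells ranged from 0 to 0.515 CPM (median 0.196) under basal conditions and from 0.717 to 7.72 CPM (median 4.09) with cytokines, the lowest value at each condition being that of replicate 8. The basal WT replicate 1 was thus above a treated WT library, which made the groups overlap. The log2 fold changes of *Cxcl5* were 3.90 in WT (SE 0.90, adjusted p = 0.00116) and 4.15 in KO cells (SE 0.64, adjusted p = 6.72e-06). Without WT replicate 1 all WT basal libraries were at 0 for both genes, and the rises of the other 4 WT mice were at least 98.98-fold for *Cxcl3* and at least 41.98-fold for *Cxcl5* over a floor of 3 counts in the group. Most low counts were even, as they would be if both reads of a pair were counted, and at a floor of 3 pairs, or 6 counts, added after the data were seen, these bounds would be 49.5-fold and 21.0-fold. Whether pairs were counted so is not given in the sources used here.

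**Figure D2:**
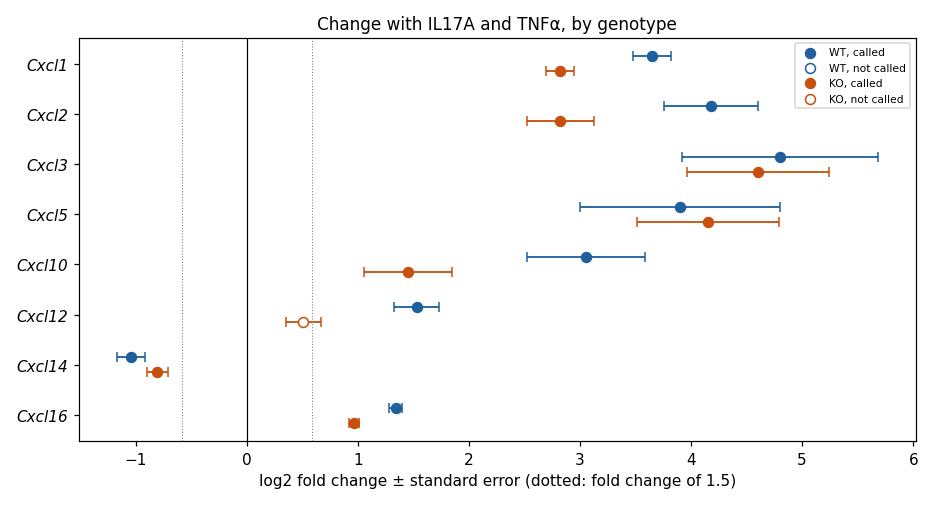
Fitted log2 fold change with IL17A and TNFα (horizontal axis) of the 8 tested members in WT (blue, n = 5) and KO cells (orange, n = 8), with bars of 1 standard error, filled points for called changes and dotted lines at a fold change of 1.5. The neutrophil-attracting genes lie between 2.82 and 4.80, *Cxcl14* lies below 0, and *Cxcl12* in KO cells (0.51) is the only open point.

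Of the interferon-induced group *Cxcl10* was the only member above the filter. It stood at 0.555, 0, 0.354, 0.346 and 0.236 CPM in WT basal libraries and at 2.26, 1.47, 1.35, 2.73 and 4.84 CPM with cytokines. In KO cells it ranged from 0.115 to 0.990 CPM (median 0.642) and from 1.05 to 1.91 CPM (median 1.72) with cytokines. Treated and basal libraries did not overlap in either genotype, and the treated KO libraries were less spread than the WT ones (SD 0.286 and 1.41 CPM). The log2 fold change was 3.05 in WT (SE 0.53, adjusted p = 3.78e-05) and 1.45 in KO cells (SE 0.39, adjusted p = 0.00507). *Cxcl9* had no count in any of the 13 basal libraries, which allows up to 0.0109 CPM over the 5 WT and 0.00651 CPM over the 8 KO libraries at a floor of 3 counts (0.0217 and 0.0130 CPM at 6 counts). With cytokines it had 12, 2, 0, 6 and 8 counts in WT replicates 1 to 5, and in KO cells 3 of 8 libraries had a count, the highest 10 counts. *Cxcl11* had 0, 0, 6, 2 and 12 counts in the treated WT libraries, 3 counts in all in the treated KO libraries and 12 counts in a single KO basal library. Both were thus detected at levels of a few reads, *Cxcl9* in treated libraries of both genotypes. Without the filter on low counts both were called higher with cytokines in WT cells and *Cxcl9* also in KO cells, in each case against a basal group at 0. With cytokines *Cxcl11* had means of 0.00795 CPM in KO and 0.0759 CPM in WT cells, with an exact permutation p of 0.0412 (two-sided) that did not pass after adjustment over 4 such tests (0.165). *Cxcl9* had means of 0.0406 and 0.0944 CPM (exact permutation p = 0.228, adjusted 0.457).

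The homeostatic members moved in opposite directions. *Cxcl12*, which attracts lymphocytes and progenitor cells, stood at 5.24, 4.31, 4.86, 2.80 and 3.97 CPM in WT basal libraries and at 8.37, 12.1, 16.8, 9.88 and 14.0 CPM with cytokines. In KO cells its ranges of 4.57 to 8.78 CPM (median 6.89) and 7.39 to 12.4 CPM (median 9.14) overlapped. Its rise in WT cells was 1.53 on the log2 scale (SE 0.20, adjusted p = 4.88e-07). In KO cells the log2 fold change was 0.51 (SE 0.15, adjusted p = 0.0123), below the fold change of 1.5. *Cxcl14*, an epithelial chemokine, stood at 30.6, 24.9, 37.2, 24.7 and 32.3 CPM in WT basal libraries and at 17.8, 13.3, 14.7, 13.0045 and 13.7 CPM with cytokines. In KO cells it ranged from 23.7 to 38.7 CPM (median 29.8) and from 14.6 to 20.9 CPM (median 17.98) with cytokines. It was the only member that fell, with no overlap of treatments in either genotype. Its log2 fold changes were -1.04 (SE 0.12, adjusted p = 1.02e-07) and -0.81 (SE 0.10, adjusted p = 1.24e-07).

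*Cxcl16*, the transmembrane member, rose from the highest basal level. WT basal libraries held 188, 186, 180, 166 and 184 CPM, and WT cytokine libraries 395, 477, 467, 450 and 499 CPM. KO cells ranged from 212 to 246 CPM (median 236) and from 427 to 499 CPM (median 443) with cytokines. The mice of a group were close to each other, and the log2 fold change was 1.34 in WT (SE 0.06, adjusted p = 1.04e-16) and 0.96 in KO cells (SE 0.05, adjusted p = 3.95e-16).

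The second question was whether the loss of *Pla2g4d* alters these genes without cytokines. Under basal conditions 3 of 8 tested members, *Cxcl1*, *Cxcl2* and *Cxcl12*, were higher in KO than in WT cells and none was lower, where 1.61% of all genes were higher and 1.07% lower. All 8 had a log2 fold change above 0, with a median of 1.02 (0.00 over all genes). *Cxcl1* at 12.9 ± 2.02 CPM in KO (SD, n = 8) and 6.13 ± 1.86 CPM in WT cells (SD, n = 5) differed by a log2 fold change of 1.07 (SE 0.15, adjusted p = 1.54e-05). *Cxcl2* differed by 1.55 (SE 0.40, adjusted p = 0.0115), with means of 0.708 ± 0.285 and 0.248 ± 0.194 CPM and 6 of 8 KO libraries above all WT libraries. *Cxcl12* differed by 0.66 (SE 0.18, adjusted p = 0.0198), at 6.68 ± 1.40 and 4.24 ± 0.941 CPM, with 7 of 8 KO libraries above all WT libraries. *Cxcl16* had an adjusted p of 2.58e-05 at a difference of 0.36 (SE 0.05), too small for the fold of 1.5, at 232 ± 12.9 and 181 ± 9.08 CPM. For *Cxcl1* and *Cxcl16* each of the 8 KO libraries exceeded every WT library, WT replicate 1 included, which 3.03% of all genes showed in either direction. The remaining tested members did not pass, namely *Cxcl3* (1.18, SE 0.92), *Cxcl5* (1.60, SE 0.90), *Cxcl10* (0.97, SE 0.48) and *Cxcl14* (0.04, SE 0.11, 95% interval -0.17 to 0.26). The call of *Cxcl2* was lost when only the 2 basal groups were fitted (adjusted p = 0.119). That of *Cxcl12* was lost without WT replicate 4, at a log2 fold change of 0.54, below the fold of 1.5. *Cxcl5*, in contrast, was called by limma on the authors' log2 values (2.46, adjusted p = 0.0413).

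The mouse labelled WT replicate 1 decided the basal results of *Cxcl3* and *Cxcl5*. Without it both were higher in KO cells, with adjusted p of 0.0209 and 0.00166. The KO means of 0.116 and 0.240 CPM were then at least 8.49-fold and at least 17.5-fold higher than a floor of 3 counts over the 4 other WT libraries, all at 0 (4.24-fold and 8.75-fold at a floor of 6 counts). Since that mouse held every WT basal count of both genes and was singled out partly by *Cxcl5*, leaving it out fixes this outcome, which is a description and no support. With WT replicate 1 and KO replicate 8 both left out 6 members were called higher under basal conditions, *Cxcl10* (1.42, adjusted p = 0.0677) with those 5, *Cxcl1* at 1.28 and *Cxcl12* at 0.80. Among cell type markers, *Pecam1* was higher in KO basal cells (log2 0.95) and *Fbn1*, a fibroblast gene, was lower (-1.18). *Cxcl12* is also a known product of fibroblasts, whose marker list summed to 7.07 to 12.1 CPM in WT and 3.92 to 10.2 CPM in KO basal libraries, which overlapped, with *Fbn1* the only one of 9 tested markers called. *Krt1* was lower in KO basal cells (-0.75). The immune cell markers summed to 3.65 to 12.6 CPM in WT and 6.20 to 20.9 CPM in KO basal libraries. These ranges overlapped, and none of the 5 immune cell markers tested was called. The part of fibroblasts, immune cells, endothelial cells and keratinocyte differentiation in the basal differences was not tested.

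**Figure D3:**
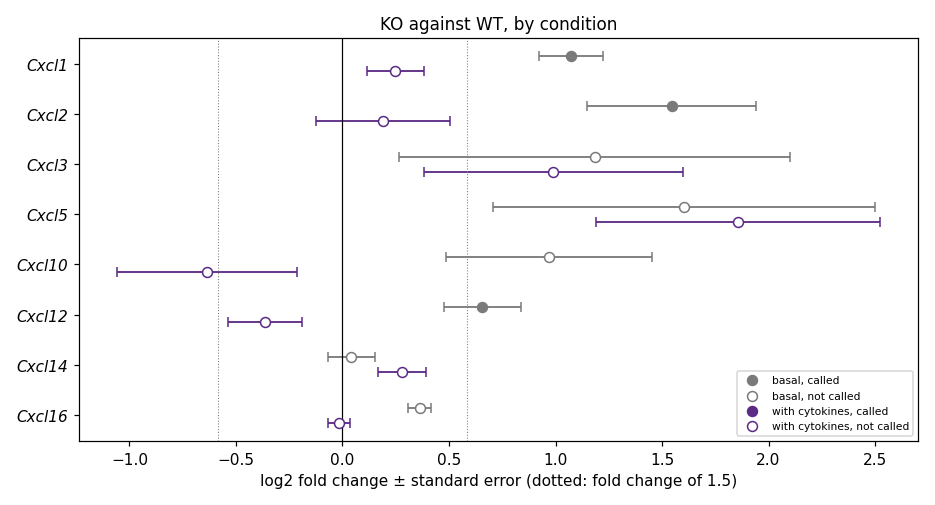
Fitted log2 fold change of KO against WT cells (horizontal axis) under basal conditions (gray) and with cytokines (purple) for the 8 tested members, with bars of 1 standard error, filled points for called differences and dotted lines at a fold change of 1.5. Under basal conditions *Cxcl1* (1.07), *Cxcl2* (1.55) and *Cxcl12* (0.66) are filled, and with cytokines all points are open.

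In the presence of cytokines none of the 8 members was called between genotypes (edgeR's quasi-likelihood test, 3 with an unadjusted p under 0.05, 0 called by DESeq2, and 2 with the mouse as a random block), where 0.148% of all genes were higher and 0.556% lower in KO cells. *Cxcl1* was at 90.8 ± 15.03 CPM in KO and 76.5 ± 8.93 CPM in WT cells, with a log2 fold change of 0.25 (SE 0.13, adjusted p = 0.388). *Cxcl16* was at 452 ± 25.7 and 458 ± 39.2 CPM, with a log2 fold change of -0.02 and a 95% interval of -0.12 to 0.08. Its levels thus differed by less than the spread between mice. The 3 members with an unadjusted p under 0.05 were *Cxcl5* (1.86, SE 0.67, adjusted p = 0.167), *Cxcl12* (-0.36, SE 0.17, adjusted p = 0.318) and *Cxcl14* (0.28, SE 0.11, adjusted p = 0.224). *Cxcl2* (0.19), *Cxcl3* (0.99) and *Cxcl10* (-0.63) had adjusted p between 0.466 and 0.850. The genotypes overlapped for all 8, where 1.08% of all genes did not overlap. The differentiation keratins *Krt1* (-1.42) and *Krt10* (-1.15) were lower in KO cells with cytokines, and their part in these values was not tested.

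*Cxcl5* with cytokines depended on both mice that stood apart. Its means were 4.38 ± 2.06 CPM in KO and 1.195 ± 1.40 CPM in WT cells. Without WT replicate 1 the log2 fold change was 2.94 (adjusted p = 0.00285), without KO replicate 8 it was 2.02 (adjusted p = 0.0567), and without both it was 3.10 (SE 0.39, adjusted p = 1.69e-05). Since those mice were singled out partly by *Cxcl5* itself, the larger difference without them is a description and no support. When only the groups with cytokines were fitted, *Cxcl3* (0.995, adjusted p = 0.0922) and *Cxcl5* (1.85, adjusted p = 0.0785) were called, and with the mouse as a random block (limma-voom) *Cxcl3* (1.03, adjusted p = 0.0915) and *Cxcl5* (2.19, adjusted p = 0.0614) were called as well. With both mice left out *Cxcl12* (-0.52, adjusted p = 0.0373) and *Cxcl14* (0.41, adjusted p = 0.0128) passed the adjusted p but not the fold change.

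The third question was whether the response itself differed between genotypes, which the interaction of genotype and treatment tests. Of the 8 members 2, *Cxcl1* and *Cxcl12*, were called for a lower log2 fold change with cytokines in KO than in WT cells and none for a higher one (6 were lower and 2 higher before any threshold), where 0.184% of all genes were lower and 0.0355% higher. The difference was -0.83 for *Cxcl1* (SE 0.20, adjusted p = 0.0484) and -1.02 for *Cxcl12* (SE 0.25, adjusted p = 0.0587). *Cxcl16* passed the adjusted p (0.00902) at -0.38 (SE 0.07), below the fold change of 1.5. For *Cxcl1* and *Cxcl16* the basal level was higher in KO cells and no difference was called with cytokines (0.25 and -0.02). For *Cxcl12* the basal level was higher in KO cells and the treated mean was the lower one. *Cxcl2* (-1.35, adjusted p = 0.328) and *Cxcl10* (-1.60, adjusted p = 0.392) had differences of that size or larger that did not pass, with SEs of 0.50 and 0.64. *Cxcl3* (-0.19), *Cxcl5* (0.25) and *Cxcl14* (0.24) had adjusted p between 0.700 and 0.982. Within mice the log2 change of *Cxcl12* ranged from 0.67 to 1.81 in WT (median 1.78) and from 0.10 to 1.38 in KO mice (median 0.39), that of *Cxcl16* from 1.07 to 1.44 and from 0.80 to 1.13, and that of *Cxcl1* from 3.06 to 4.19 and from 2.37 to 3.49. The genotypes overlapped for all 3 genes. In each of them the lowest WT value was that of the mouse labelled WT replicate 1 and the highest KO value that of the mouse labelled KO replicate 8.

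Both interaction calls were close to the threshold. With single mice left out, *Cxcl1* lost its call for WT replicates 3, 4 and 5 (adjusted p of 0.104, 0.250 and 0.125) and for KO replicates 3, 5 and 6 (0.125, 0.132 and 0.105). *Cxcl12* lost its call for WT replicates 2, 3, 4 and 5 (0.144, 0.158, 0.142 and 0.220) and for KO replicates 1 and 5 (0.134 and 0.148). Both held with WT replicate 1 and KO replicate 8 left out, at -1.09 (adjusted p = 0.00132) for *Cxcl1* and -1.33 (adjusted p = 0.00327) for *Cxcl12*. These mice had the lowest WT and the highest KO change of both genes, so leaving them out enlarges the difference. The larger values without them are thus a description and no support.

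**Figure D4:**
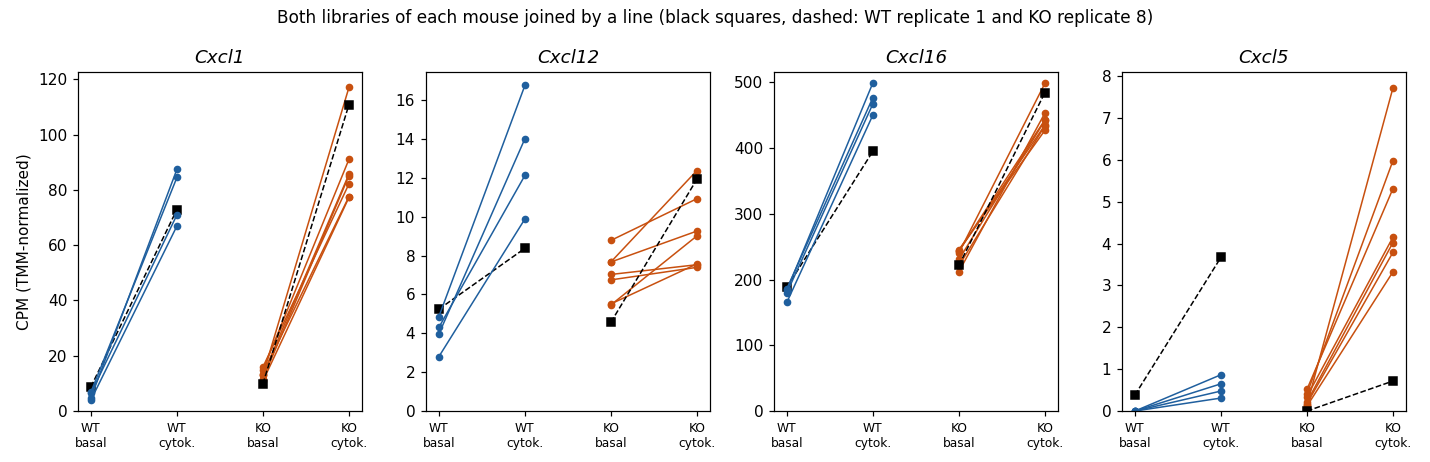
Level in CPM (vertical axis) of *Cxcl1*, *Cxcl12*, *Cxcl16* and *Cxcl5*, with the basal and the cytokine-treated library of each mouse joined by a line (WT blue, KO orange, WT replicate 1 and KO replicate 8 as black squares with dashed lines). KO mice start higher for *Cxcl1* and *Cxcl16* and end in the WT range for *Cxcl16*, lines of *Cxcl12* are flatter in most KO mice, and both dashed lines of *Cxcl5* run apart from their own genotype.

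Other genes of the CXC pathway were described from lists chosen with earlier results of these data known. None of the 5 other CXC ligands passed the filter. Of 10 receptors 4 were tested, and *Ackr3*, the scavenger of Cxcl12, fell with cytokines in WT (-1.45, adjusted p = 2.14e-05) and KO cells (-1.13, adjusted p = 2.31e-05), opposite in direction to *Cxcl12*. *Cxcr4*, the signalling receptor of Cxcl12, was higher in KO basal cells (1.70, adjusted p = 0.0780) at 0.566 ± 0.299 against 0.169 ± 0.150 CPM, which did not hold without WT replicate 1 and KO replicate 8 (1.41, adjusted p = 0.159). *Cxcr2*, the receptor of the neutrophil-attracting group, was tested and not called in any comparison, and *Cxcr3* was at 0 in every library.

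Of 23 genes that carry IL17A and TNFα signals to chemokines 6 rose and none fell in WT cells, and likewise in KO cells, with medians of 0.46 and 0.13, where 8.65% of all genes rose and 5.26% fell in WT and 6.33% and 4.55% in KO cells. The largest rises in WT cells were those of the TNF receptor *Tnfrsf1b* (2.98 in WT and 3.38 in KO cells), of *Zc3h12a*, an RNase that degrades cytokine and chemokine mRNA (2.59 and 2.21), and of *Tnfaip3*, an inhibitor of NF-kB signalling (1.83 and 1.19). *Tnfaip3* was also the only listed gene of this group with an interaction call (-0.64, adjusted p = 0.00201). *Arid5a*, which stabilizes cytokine mRNA, was higher in KO basal cells (0.59, adjusted p = 1.92e-04). Neither of these calls was lost without WT replicate 1 and KO replicate 8 (-0.77 and 0.62). *Zc3h12a* (-0.38), *Relb* (-0.45) and *Rela* (-0.22) also passed the adjusted p of the interaction, below the fold change of 1.5. So did *Nfkbia* (-0.31), *Traf3ip2* (-0.22) and *Nfkb2* (-0.25). At any fold change 166 of 16893 genes passed it, 132 of them lower. In KO basal cells *Tnfaip3* (0.58), *Relb* (0.36), *Nfkb2* (0.35) and *Zc3h12a* (0.29) were higher by the adjusted p alone. *Rela* (0.14) and *Traf3ip2* (0.12) were too, while *Tnfrsf1a* was lower (-0.22).

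Of 21 interferon signalling genes 15 were tested, of which 4 rose in WT and 2 in KO cells (8.65% and 6.33% of all genes), so that the KO count is close to the background. *Socs1*, a feedback inhibitor, rose by 2.66 in WT and 1.54 in KO cells, and *Irf1*, an activator of interferon target genes, by 1.43 and 1.18. *Irf7*, a driver of type I interferon, rose in WT cells only by the thresholds used (1.86 in WT, 0.21 in KO cells), and this difference passed as an interaction (-1.65, adjusted p = 0.0559). With cytokines *Irf7* (-1.17, adjusted p = 0.0314) and *Irf9*, a subunit of the factor that binds the ISRE (-0.66, adjusted p = 0.0207), were lower in KO cells. *Irf9* was also lower in KO basal cells (-0.44), passing the adjusted p but below the fold change of 1.5. Its interaction did not pass (-0.22), and *Irf7* under basal conditions was not called (0.48). *Irf7* was at 2.13 ± 0.688 CPM in KO and 4.79 ± 2.13 CPM in WT cells. The genotype differences of *Irf7* and *Irf9* with cytokines held without WT replicate 1 and KO replicate 8 (-1.42 and -0.82). The interferon genes *Ifnb1* and *Ifng* were at 0 in every library, while *Ifnk*, *Ifnl2* and *Ifnl3* had a few reads. *Ifnk* averaged 0.0189 CPM over WT basal, 0.0465 CPM over treated WT and 0.00509 CPM over treated KO libraries. For *Ifnl2* the treated means were 0.0405 CPM (WT) and 0.0105 CPM (KO), with both basal groups at 0. *Ifnl3* was above 0 only among WT basal libraries (mean 0.0378 CPM). Each of these means was smaller than its SD. These genes lay below the filter and were not tested.

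Of 11 genes listed for the cleavage and shedding of chemokines 9 were tested, and none was called between genotypes. The list includes *Timp1* and *Timp3*, which are inhibitors of metalloproteases. With cytokines 3 rose and 2 fell in both genotypes (background 8.65% and 5.26% in WT, 6.33% and 4.55% in KO cells). The 2 that fell were *Dpp4* and the inhibitor *Timp3*, whose log2 fold changes were -0.68 in WT and -0.81 in KO cells. *Mmp9*, a protease that trims neutrophil-attracting chemokines, rose by 3.57 in WT and 2.87 in KO cells, and *Mmp2*, which inactivates Cxcl12, by 1.03 and 1.30. *Dpp4*, a dipeptidyl peptidase that inactivates Cxcl10 and Cxcl12, fell by 1.74 and 1.51 on the log2 scale. *Adam10* and *Adam17*, which shed Cxcl16 from the membrane, were not called in WT (-0.18 and 0.15) or KO cells (-0.10 and 0.22). Each of these values passed the adjusted p but not the fold change.

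The genes most alike to each member were taken as those whose deviations from the 4 group means had the highest Pearson r with the member over 26 libraries of 13 mice, among 11850 genes. The highest r was that of *Cxcl5* with *Racgap1* (0.94), followed by *Padi3* (0.93) and *Lmnb1* (0.92). *Cxcl10* went most with *Gm44560* (0.89), *Cxcl12* with *Gpr161* (0.81) and *Tnfaip3* (0.80), and *Cxcl16* with *Rgs12* (0.80). For *Cxcl3* it was *Gbp2* (0.79), for *Cxcl1* *Edn1* (0.77), for *Cxcl14* *Tonsl* (0.73) and for *Cxcl2* *D11Wsu47e* (0.68). Pairs of libraries share a mouse and the best of many genes was taken, so these values are a description.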

How the data were processed

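Bulk mRNA was sequenced from 26 libraries of 13 mice. The authors aligned strand-specific paired reads to mm39 with STAR 2.7.10b, counted them per gene with featureCounts 2.0.6, and deposited raw counts for 56738 symbols and log2 normalized counts. The counting options are not given in the sources used here. The deposited log2 values served only as an alternative. Of the member counts above 0, 80.8% were even, and counts divided by 2 gave the same members called.

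Testing covered genes whose mean normalized count exceeded 10 and used edgeR 4.0.16 under R 4.3.3 (TMM, quasi-likelihood fit of 4 groups, no covariate, Benjamini-Hochberg adjustment). DESeq2 1.42.0 and limma 3.58.1 were alternatives. Standard errors follow from the log2 fold change and F. Cxcl9 and Cxcl11, below the filter, were compared with exact permutation tests over mice. The procedure was tested on simulated data. CPM per kb used exon lengths of GENCODE for GRCm39.

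Replicates are separate mice, and all pairs of libraries within a group differed by more than sampling noise (lowest chi-square per degree of freedom 7.42). Basal and treated libraries that share a genotype and number in their titles were taken as 1 mouse, an inference from the labels, which count 5 WT and 8 KO mice, and their deviations correlated between 0.00051 and 0.25 (median 0.11). Sex, litter and batch are not given in the labels. Members and lists were chosen with earlier results of these data known. Genes named from the lists were those called between genotypes or in the interaction and the 3 largest called WT cytokine changes. Cxcr2, Cxcr3, Ifnb1, Ifng, Adam10, Adam17, Timp1, Timp3 and marker genes were named after their values were seen. Relb, Rela, Nfkbia, Traf3ip2, Nfkb2, Tnfrsf1a, Ifnk, Ifnl2 and Ifnl3 were as well.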

Additional observations from a re-analysis of the deposited data

Results flagged for a closer look

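A library lay far from the others of its group, by Dixon's ratio at the 95% level, in 6 of 37 member and group combinations. All flags fell on *Cxcl3*, *Cxcl5*, *Cxcl9* and *Cxcl11*, members with few counts. The usual rate of 1 in 20 assumes normally spread values and is no measure of chance for them. For *Cxcl3* and *Cxcl5* in WT basal and *Cxcl11* in KO basal cells all other libraries were at 0, so any count gave the flag. *Cxcl3* was at 0.243 CPM in WT basal replicate 1, the only WT basal library above 0, and at 0.498 CPM in KO basal replicate 2. *Cxcl5* was at 0.382 CPM in WT basal replicate 1 and at 3.67 CPM in WT replicate 1 with cytokines. *Cxcl9* was at 0.233 CPM in KO replicate 6 with cytokines and *Cxcl11* at 0.210 CPM in KO basal replicate 5, both from 10 to 12 counts.

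The cytokine response differed between genotypes for 3 members by the adjusted p of the interaction. The log2 difference of KO minus WT was -0.83 for *Cxcl1*, -1.02 for *Cxcl12* and -0.38 for *Cxcl16*, the last below the fold change of 1.5.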

How the results depend on the processing

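Of 976 comparisons of 40 member results with alternatives, 928 kept their direction and side of the threshold, 15 lost and 16 gained a call, and 17 changed sign, none of them a called value. Leaving out 1 mouse in turn gave 8 members called for the cytokine effect in WT and 7 in KO, 2 to 5 for the basal genotype effect, 0 to 1 for the genotype effect with cytokines and 0 to 2 for the interaction. Over all genes the ranges were 2042 to 2531, 1741 to 1856, 342 to 827, 40 to 558 and 18 to 91, where all mice gave 2349, 1837, 453, 119 and 37.

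Without the mice WT replicate 1 and KO replicate 8, chosen after seeing the data, 6 members were called under basal conditions (967 genes), 1 with cytokines (710 genes) and 2 in the interaction (137 genes). No threshold on the fold change gave 6221, 6048, 2303, 479 and 166 genes in the 5 comparisons, and no filter gave 3305 genes in KO with cytokines. An adjusted p under 0.05 gave 54 genes between genotypes with cytokines and 21 genes and 1 member in the interaction. With only the groups with cytokines fitted, 2 members and 180 genes differed between genotypes. DESeq2 called 62 genes in the interaction. The replicate block, pairing the libraries of a mouse, gave 80 genes in the interaction as a fixed term, with *Cxcl1* at -0.86 (adjusted p = 0.0156), *Cxcl12* at -1.01 (adjusted p = 0.0198) and *Cxcl16* at -0.38 (adjusted p = 0.00603), and 2 members between genotypes with cytokines as a random term (limma-voom), *Cxcl3* and *Cxcl5*. The cause of these changes was not tested. No fit of the interaction with only the groups compared, or of a genotype effect with a fixed block, was possible.

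Signs changed for values near 0 or of few counts. *Cxcl14* under basal conditions ranged from -0.0201 to 0.13 over mice left out and was -0.00787 without both mice. With cytokines *Cxcl16* ranged from -0.0599 to 0.0173 over mice left out, and *Cxcl2* was -0.00235 without both mice. The interaction of *Cxcl5* was -0.26 with limma on log2 values, -0.37 with the fixed and -0.95 with the random block, -3.86 without both mice, and -3.82 to 0.49 over mice left out. That of *Cxcl3* ranged from -4.62 to 0.43. Precision of *Cxcl3*, *Cxcl5*, *Cxcl9* and *Cxcl11* is limited by few counts.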
